A study of Danio rerio with 16 samples.

Results

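Cluster 7 is one of 10 cell clusters into which the study divided the merged single cells of TCDD-exposed and control zebrafish testes. It is described here by all 2629 transcripts on its deposited list, out of 4916 transcripts on the list of at least 1 cluster. For 1593 of the 2629 transcripts the share of cells with the transcript was higher in cluster 7 than in all other cells, and for 1036 it was lower. Of the list, 2226 transcripts (84.7%) could be matched to a gene name, which gave 2210 genes, and 201 were on no other list. The share columns fit a contrast of each cluster with all other cells, and by that fit cluster 7 held 6.24% of the cells.

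The cells came from dissociated testes of adult AB strain zebrafish at 1.5 years of age. Control fish (CP, n = 3) had been kept in 0.1% DMSO, and exposed fish (TP, n = 2) in 50 pg/ml of TCDD (2,3,7,8-tetrachlorodibenzo-p-dioxin, an agonist of the aryl hydrocarbon receptor) in the same vehicle, for 1 h at 3 and again at 7 weeks post-fertilization. The sample labels repeat the TCDD dose for control fish, and the exposure given in the study's methods was followed. About 5,000 cells were loaded per suspension for scRNA-seq, whose counts summed over cells are the pseudo bulk-seq libraries CP and TP, and the remainder went to bulk-seq (CB, n = 3, and TB, n = 2). The controls and the exposed fish were both dissociated with collagenase and freed of dead cells, so no intact tissue enters the comparison. Nothing in the labels says whether each replicate was 1 fish, so p-values measure the spread between suspensions.

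Male germ cells pass from mitotic spermatogonia through meiotic prophase, in which the synaptonemal complex pairs homologous chromosomes, to the meiotic divisions that yield round spermatids. Spermatids then build a flagellum on a microtubule axoneme driven by dynein arms, and pack their chromatin. Many genes of the flagellum are transcribed ahead of the divisions in mammals, while spermatocytes are still in prophase.

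The markers of germ cells were read first. sycp1, the transverse filament of the synaptonemal complex, was found in 100% of cells of cluster 7, against 55.4% of all other cells. It was also in 99.5%, 99.4%, 99.0% and 98.6% of cells of clusters 6, 8, 9 and 10. Thus it does not set cluster 7 apart from these. No marker of Sertoli, Leydig, smooth muscle, endothelial, leukocyte or erythrocyte cells was on the list of cluster 7 (0 for each of these marker lists). These markers were scarce on every list, with 0 of the Sertoli, Leydig and erythrocyte markers, 1 each of smooth muscle and endothelium and 4 of leukocytes on any of the 10, so their absence does not place cluster 7. All 9 listed markers of spermatogonia had a lower share in cluster 7, with a median of 2.60% against 50.2% elsewhere. Most of them were pcna and mcm2 to mcm7, which serve DNA replication in any dividing cell. Of the germ-cell markers among them, piwil1 was in 61.6% of cells against 74.0%, and dmrt1 in 20.7% against 56.6%. Of 25 listed markers of spermatids and sperm 24 had a higher share, as did 14 of 16 markers of the meiotic divisions. Of meiotic prophase 7 of 12 did, near the 1593 of 2629 of the whole list, while the same markers gave 15 of 15 in cluster 5 and 16 of 18 in cluster 6. Markers of spermatids and sperm gave 13 of 15 in cluster 6, and 25 of 26, 23 of 25 and 20 of 22 in clusters 8, 9 and 10. Those of the divisions gave 5 of 11 in cluster 6, and 16 of 16, 9 of 14 and 3 of 11 in clusters 8, 9 and 10. Markers of the divisions and of sperm were higher together. This does not exclude late prophase, as many flagellar genes are transcribed ahead of the divisions in mammals. Over the 7 prophase markers that clusters 6 to 10 all list, the median share was 89.2% in cluster 6, 44.4% in cluster 7 and 12.8% in cluster 8. sycp1 was nearly as widespread in clusters 6, 8, 9 and 10. With sycp1 in 100% of cells of cluster 7, nearly all of them held it together with flagellar transcripts such as cfap90 (97.8%). For less widespread transcripts, such as dmc1 (49.6%) and ccnb1 (30.4%), the pooled lists do not show which occur together in 1 cell. The study named spermatogonial, spermatocyte, spermatid and sperm clusters, but its text ties no name to a number. Cluster 7 was given no single stage name. It keeps its number.

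Genes of the flagellum and of sperm were among those with the largest gaps between cluster 7 and all other cells. ccdc166, a coiled-coil protein, had the largest gap, with 94.2% of cells in cluster 7 and 26.4% of all other cells. dnah1, a heavy chain of the inner dynein arm, followed with 94.8% against 28.2%. armc3, an armadillo repeat protein, was found in 82.8% against 16.5%, cfap144 in 93.5% against 27.9%, cfap90 in 97.8% against 33.0%, and izumo1, whose product in sperm is needed for fusion with the egg, in 86.6% against 21.6%. spag6, part of the central apparatus of the axoneme, stood at 96.3% against 33.8%, and fbxo36a, an F-box protein, at 90.3% against 27.2%. Among the transcripts with the largest gaps several had no gene name. These gaps are against all other cells pooled and are not particular to cluster 7, as in cluster 8 the shares were 95.5% for ccdc166, 98.0% for cfap144, 98.6% for cfap90, 88.9% for izumo1, 96.9% for spag6 and 90.9% for fbxo36a. The gaps chose the list, so they are a description and were not tested.

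Whole families of the axoneme stood on the list, on which 1593 of all 2629 transcripts had a higher share. Such genes were not particular to cluster 7. Of listed flagellar transcripts 89 of 90 had a higher share in cluster 7, and 40 of 46 in cluster 6. In clusters 8, 9 and 10 it was 88 of 89, 77 of 84 and 67 of 74. Of 24 transcripts for axonemal dyneins and their assembly factors (dnah, dnai, dnal, dnaaf and odad genes) 24 had a higher share, from 13.8% to 98.5% of cells, with dnali1 the highest. The cilia and flagella associated proteins (cfap genes) contributed 24 transcripts, all with a higher share and a median of 73.7% against 23.3%. Intraflagellar transport and BBSome genes, which carry cargo along cilia, contributed 16, with a median of 63.2%. foxj1a, the transcription factor that switches on genes of motile cilia, was found in 60.1% of cells against 21.2%. The families, and members named here only for their role, were picked after their values were seen.

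**Figure D1:**
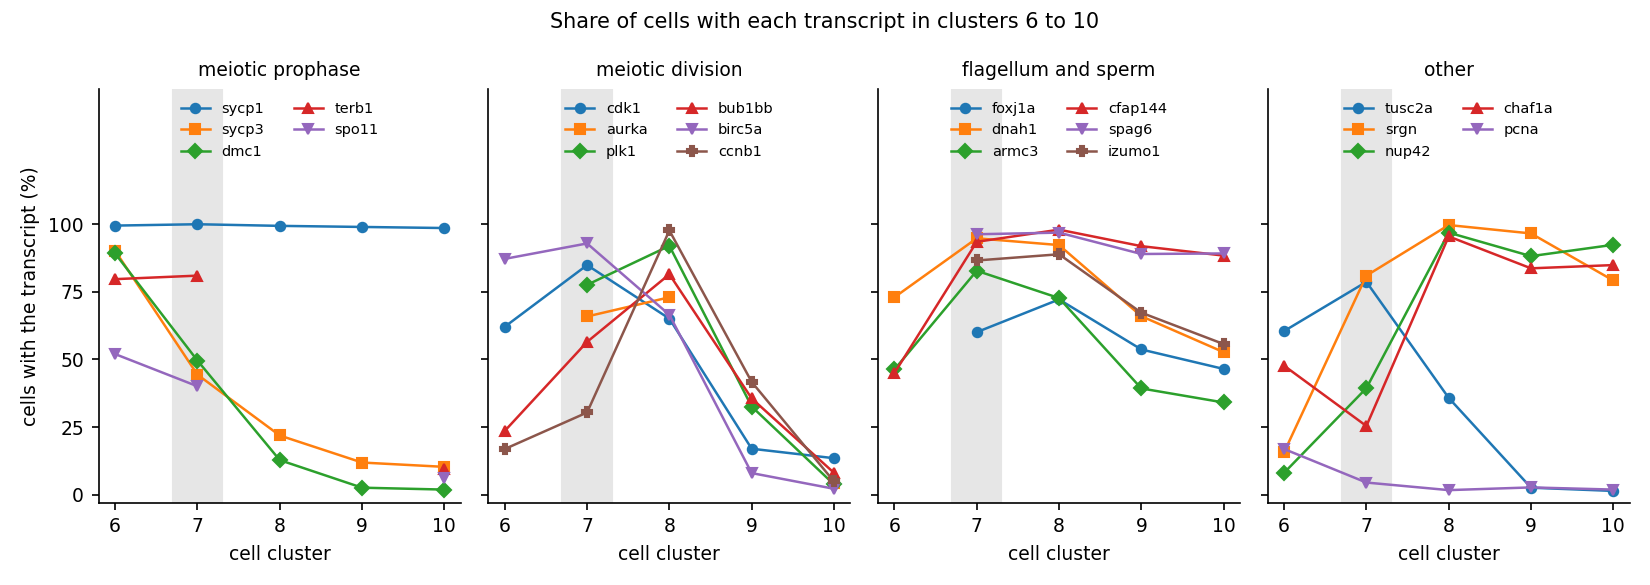
Share of cells (%) with each of the transcripts named in the key in clusters 6 to 10, pooled over all libraries; cluster 7 is shaded, a missing point means that the transcript was not on that cluster's list, and lines join neighbouring clusters only. In cluster 7 dmc1 (49.6%) was below its share in cluster 6 (89.2%), ccnb1 (30.4%) had not reached its share in cluster 8 (97.7%), and flagellar genes such as dnah1 (94.8%) were at or near their highest.

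Some genes of prophase had smaller shares in cluster 7 than in cluster 6, and the listed flagellar genes had larger ones. The lists shared 1318 transcripts, 77.0% of that of cluster 6 and 50.1% of that of cluster 7, and 596 were higher in both. sycp3, of the axial elements, was in 90.2% of cells of cluster 6 and 44.4% of cluster 7, and dmc1, the meiotic recombinase, in 89.2% and 49.6%, whereas mei4, of double-strand break formation, was in 52.6% and 67.5%. Over all 27 flagellar transcripts that clusters 6 to 10 all list, the median was 54.4% in cluster 6 and 81.0% in cluster 7. Others, such as spag6 and cfap90, were not on the list of cluster 6 and could not be compared. dnah1 stood at 73.0% and 94.8%, armc3 at 46.3% and 82.8% and cfap144 at 45.0% and 93.5%. h1l1, a linker histone, was in 60.7% and 5.60%, whereas histh1l1, on the list of histones and chromatin packing, was in 99.2% and 86.4%. Of transcripts on no flagellar list, fxyd3 went from 9.60% to 83.4%, srgn from 15.7% to 81.0%, mif4gdb from 25.3% to 90.1% and nrm, a protein of the inner nuclear membrane, from 8.0% to 65.3%. terb1, which ties telomeres to the nuclear envelope in prophase, stood at 79.7% and 81.0%. spo11, which makes the double-strand breaks of recombination, stood at 52.0% and 40.1%.

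Cluster 8, with the longest list, shared the most transcripts with cluster 7. The 1941 shared were 64.9% of its own list and 73.8% of that of cluster 7. As a share of their own lists clusters 2 to 6 overlapped more, from 69.4% in cluster 5 to 82.1% in cluster 3. Of the 1941, 927 were higher in both clusters and 960 lower in both. In 36 the share was higher in cluster 7 and lower in cluster 8, and in 18 the reverse. Among the genes that differed between the pair were those of entry into division. ccnb1, the cyclin of M phase entry, was in 30.4% of cells of cluster 7, below the 34.6% of all other cells, and in 97.7% of cluster 8. ccnb3 and cdc20 were not on the list of cluster 7 and were in 91.8% and 45.7% of cells of cluster 8. The kinases were already widespread in cluster 7, with cdk1 in 84.9% of cells (65.1% in cluster 8), plk1 in 77.6% (92.0%) and aurka in 65.9% (73.0%). chaf1a, of the chromatin assembly factor, had its lowest share of the 5 clusters in cluster 7, at 25.4% against 47.7% in cluster 6, 95.5% in cluster 8, 83.7% in cluster 9 and 84.9% in cluster 10. nup42, of the nuclear pore, at 39.4% in cluster 7, was at 8.10% in cluster 6 and at 96.9% in cluster 8.

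Clusters 9 and 10 shared 1833 and 1780 transcripts with cluster 7, 69.7% and 67.7% of its list. Over the 8 division markers that clusters 7 to 10 all list, the median share was 71.6% in cluster 7, 66.2% in cluster 8, 28.3% in cluster 9 and 6.10% in cluster 10. birc5a, of the chromosomal passenger complex, went from 92.9% in cluster 7 to 8.0% in cluster 9 and 2.20% in cluster 10, and plk1 from 77.6% to 32.6% and 3.80%. Not every one was lower there, as cdc25b, a phosphatase that activates the cyclin-dependent kinases, was in 29.3%, 53.2% and 60.5%, and ccnb1 in 30.4%, 41.7% and 4.90%. tusc2a, on no marker list, went from 78.7% to 2.60% and 1.40%. Of the transcripts higher in cluster 7, 299 were lower than elsewhere in cluster 9 and 429 in cluster 10. Flagellar genes stayed widespread, with spag6 at 89.0% and 89.2% and cfap90 at 88.9% and 92.2%. Over the 68 flagellar transcripts with a higher share in cluster 7 that clusters 8, 9 and 10 all list, the median share was 75.5% in cluster 7, 78.3% in cluster 8, 56.2% in cluster 9 and 48.4% in cluster 10. Clusters may differ in RNA content per cell, which the lists do not give, and its part in these shares was not tested.

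Few transcripts were on the list of cluster 7 alone, and their gaps were small. Of the 201, 197 had a higher share. med9, a Mediator subunit, had the largest gap, with 58.8% of cells against 34.0%. tm2d1 was in 30.4% against 7.50%, gosr2, a SNARE of the Golgi, in 40.7% against 18.7%, cxadr, a cell adhesion receptor, in 31.9% against 10.8%, and trim35-1 in 26.9% against 5.30%. On the other hand, 297 transcripts were on all 10 lists.

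The listed transcripts were then followed in TPxCP, the comparison of exposed with control pseudo bulk-seq libraries, which the lists did not use but which counts the same cells. Of the 2629, 2440 were among the 6847 rows of the table and 189 were not, the table holding no count under 30. Of the 189, 182 had a higher share in cluster 7 and 7 a lower one. A transcript with a count under 30 in any library, TP included, could thus not be followed. With edgeR's quasi-likelihood test at an adjusted p under 0.05, 965 fell and 299 rose in TP, while 19.4% of all rows fell and 8.69% rose. The split followed the share. Of 1411 transcripts with a higher share in cluster 7, 958 fell and 0 rose, with a median log2 fold change of -1.07, and of 1029 with a lower share 7 fell and 299 rose, with a median of 0.54. The median over all rows was 0.03. By the study's cutoffs for DEGs (raw p below 0.01 together with a doubling or halving), 711 of the 1411 were lower and 0 higher, beside 13.8% and 1.37% of all rows. For 1265 of the 1411 both TP libraries were below all 3 CP libraries, as for 32.8% of all rows. For 756 of the 1029 both lay above all 3, as for 32.2% of all rows.

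The counts of calls moved with single libraries. Without TP replicate 1 the list had 485 lower and 16 higher calls, without TP replicate 2 it had 343 and 5, without CP replicate 3 it had 725 and 79, and without CP replicate 2 it had 1110 and 578. In counts summed over cells, fewer cells of a type and less RNA per cell cannot be told apart. From its single cells the study reported a smaller share of sperm and spermatids in exposed testes. It reported a larger share of spermatogonia and early spermatocytes. In histology of intact tissue the study found a smaller decrease of healthy sperm than in the single cells. Its authors assumed that dissociation killed more of the impaired sperm cells. The cluster lists pool exposed and control cells, so the part of cell numbers or of RNA per cell in these changes was not tested.

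**Figure D2:**
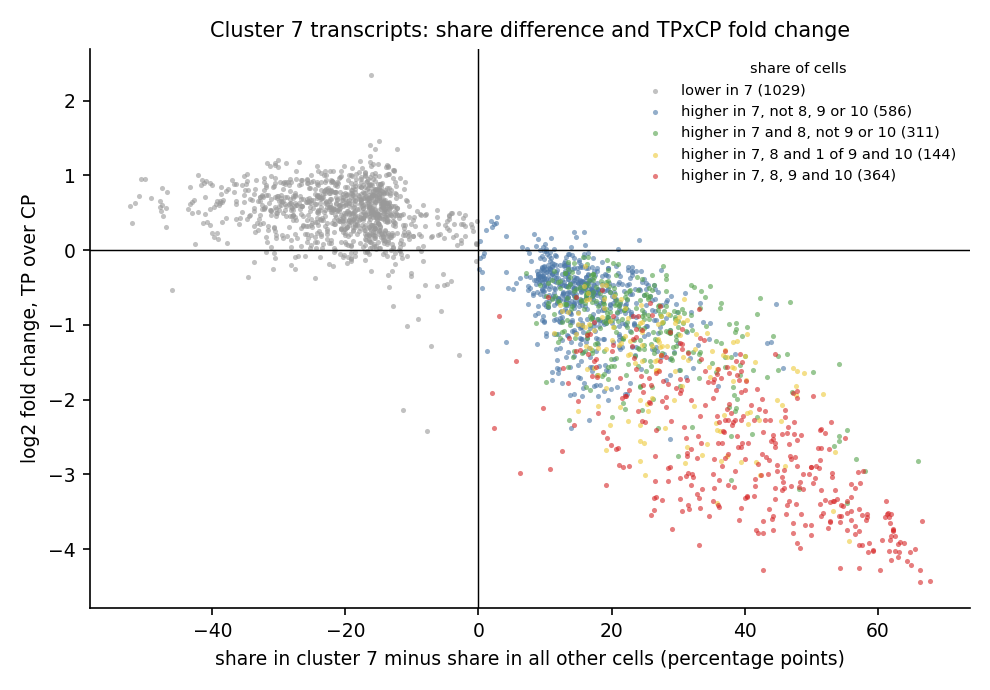
Share of cells in cluster 7 minus that in all other cells (percentage points, x axis) against the log2 fold change of TP over CP (y axis) for the cluster 7 transcripts in TPxCP, 1 point each. Colours show whether the share was lower in cluster 7 or, if higher, in which of clusters 8, 9 and 10 it was also higher. A transcript not on a cluster's list counts as not higher there. Points with a higher share lie almost wholly below 0, and the 364 that were higher in clusters 7, 8, 9 and 10 reach furthest down, with a median of -2.77.

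How far a transcript fell went with how far its higher share extended into clusters 8, 9 and 10. Other clusters were not considered in this grouping. A transcript that was not on the list of a cluster counted as not higher there, although its share in that cluster is unknown. Of the 1593 transcripts with a higher share in cluster 7, 630, 740 and 750 were not on the lists of clusters 8, 9 and 10. Only 36, 299 and 429 were listed there with a lower share. The 586 tested transcripts that were higher in cluster 7 but not in clusters 8, 9 or 10 had a median log2 fold change of -0.58, and 242 of them fell. Those higher in 7 and 8 but not in 9 or 10 (311) had a median of -0.95, and 215 fell. With 1 of clusters 9 and 10 added (144), the median was -1.43 and 134 fell. Of the 364 that were higher in all 4 clusters 361 fell, and in 364 of 364 both TP libraries lay below every CP library. Of all rows 19.4% fell, and in 32.8% both TP libraries lay below every CP library. As a share of all counts these 364 made up 15.8%, 8.73% and 10.6% in the CP libraries and 2.32% and 1.95% in the TP libraries. The 586 made up 14.7%, 13.3% and 14.6% against 11.8% and 12.4%, so the groups did not overlap there either but lay much closer. CP replicate 1, with the highest shares, was also the library with the lowest total, 3490409 counts. Without TP replicate 1 and without TP replicate 2, 48 and 18 of the 586 fell, 63 and 31 of the 311, 63 and 44 of the 144, and 307 and 250 of the 364. Without CP replicate 3, 107 of the 586 and 137 of the 311 fell. The courses were drawn from shares over the same cells, control and exposed together, so the order of the medians is a description.

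Among the flagellar genes 78 of 80 tested fell, beside 19.4% of all rows, with a median of -2.64. dnah1 measured 545, 273 and 371 CPM (counts scaled to the TMM-adjusted library total) in the CP libraries and 43.6 and 21.3 in the TP libraries. All exposed libraries lay far below all controls, and the log2 fold change was -3.62 ± 0.43 (SE, adjusted p = 0.00212, edgeR). ccdc166 was at 551, 299 and 387 CPM in CP and at 21.2 and 17.4 in TP, a log2 fold change of -4.42 ± 0.33 (adjusted p = 0.00166, edgeR). izumo1 was at 408, 196 and 234 CPM against 16.7 and 13.5, a change of -4.21 ± 0.39 on the log2 scale (adjusted p = 0.00166, edgeR). Each of these was highest in CP replicate 1, and the groups did not overlap in any of them, as for 32.8% of all rows with TP lower. The log2 fold change was -4.28 for armc3, -4.04 for cfap90, -3.82 for spag6, -4.28 for lrrc51 and -3.76 for rsph9, of the radial spokes. It was -3.78 for tmem81, whose product forms a complex with Izumo1 on zebrafish sperm. foxj1a was at 222, 98.3 and 159 CPM in CP and at 36.6 and 20.3 in TP, a log2 fold change of -2.49, and did not pass without TP replicate 2. By family, 20 of 21 tested axonemal dynein and assembly transcripts fell with a median of -2.37, 21 of 21 cfap transcripts with -3.12, and 16 of 16 intraflagellar transport and BBSome transcripts with -1.81. The counts of the flagellar list were 68 without TP replicate 1 and 51 without TP replicate 2, and of the spermatid and sperm list 20 of 22 fell, with 20 and 19 in those settings.

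Of 12 listed genes of meiotic prophase 7 fell, 2 rose and 3 did not pass the test, while 19.4% of all rows fell and 8.69% rose. The 7 that fell were those with a higher share in cluster 7. sycp1 stood at 3297, 1990 and 2320 CPM in CP and at 338 and 167 in TP, a log2 fold change of -3.33 ± 0.38 (adjusted p = 0.00191, edgeR), with every exposed library below every control. dmc1 was at 637, 481 and 691 CPM against 276 and 196, a change of -1.35 ± 0.23 (adjusted p = 0.00729, edgeR). mei4, msh4, spo11 and terb1, all of recombination or chromosome pairing, had log2 fold changes of -0.79, -2.12, -0.91 and -0.56, and terb1 did not pass with totals in place of TMM scaling. sycp3, more widespread in cluster 6 than in cluster 7, was at 1564, 1241 and 1704 CPM in CP and at 1321 and 1211 in TP. Its groups overlapped, and its change of -0.25 ± 0.18 did not pass the test (adjusted p = 0.317, edgeR). tdrd9 and mov10l1, of the piRNA pathway, had lower shares in cluster 7 and rose, with log2 fold changes of 0.81 and 1.36, though tdrd9 did not pass without CP replicate 3 or without either TP library, nor mov10l1 without TP replicate 2. Of the 7 that fell, 4 did so without CP replicate 3, 3 without TP replicate 1 and 2 without TP replicate 2.

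Genes of the divisions fell less than those of the flagellum. Of 16 on the list 11 fell and 0 rose, beside 19.4% and 8.69% of all rows, with a median of -0.90. cdk1 was at 304, 263 and 311 CPM in CP and at 171 and 191 in TP, a log2 fold change of -0.69 ± 0.16 (adjusted p = 0.0221, edgeR). plk1 was at 308, 231 and 260 CPM against 172 and 171, a change of -0.64 ± 0.18 (adjusted p = 0.0368, edgeR). Neither overlapped between groups, as for 32.8% of all rows with TP lower. The log2 fold change was -1.14 for aurka, -1.12 for kif20a, a kinesin of cytokinesis, and -0.63 for birc5a. Among subunits of the outer kinetochore and the spindle checkpoint 5 of 5 fell, with ndc80 at 161, 119 and 147 CPM in CP and 65.7 and 67.1 in TP, and log2 fold changes of -1.15 for spc25 and -0.98 for bub1bb. ccna1, a cyclin of male meiosis in mammals, fell by 2.57 on the log2 scale. ccnb1, whose highest share was in cluster 8, was at 306, 248 and 228 CPM against 201 and 191, groups that did not overlap but whose change of -0.41 ± 0.18 did not pass the test (adjusted p = 0.12, edgeR). The 11 calls became 8 without CP replicate 3, 3 without TP replicate 1 and 2 without TP replicate 2. The 5 kinetochore calls were lost without TP replicate 1 and without TP replicate 2 (0 in each).

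**Figure D3:**
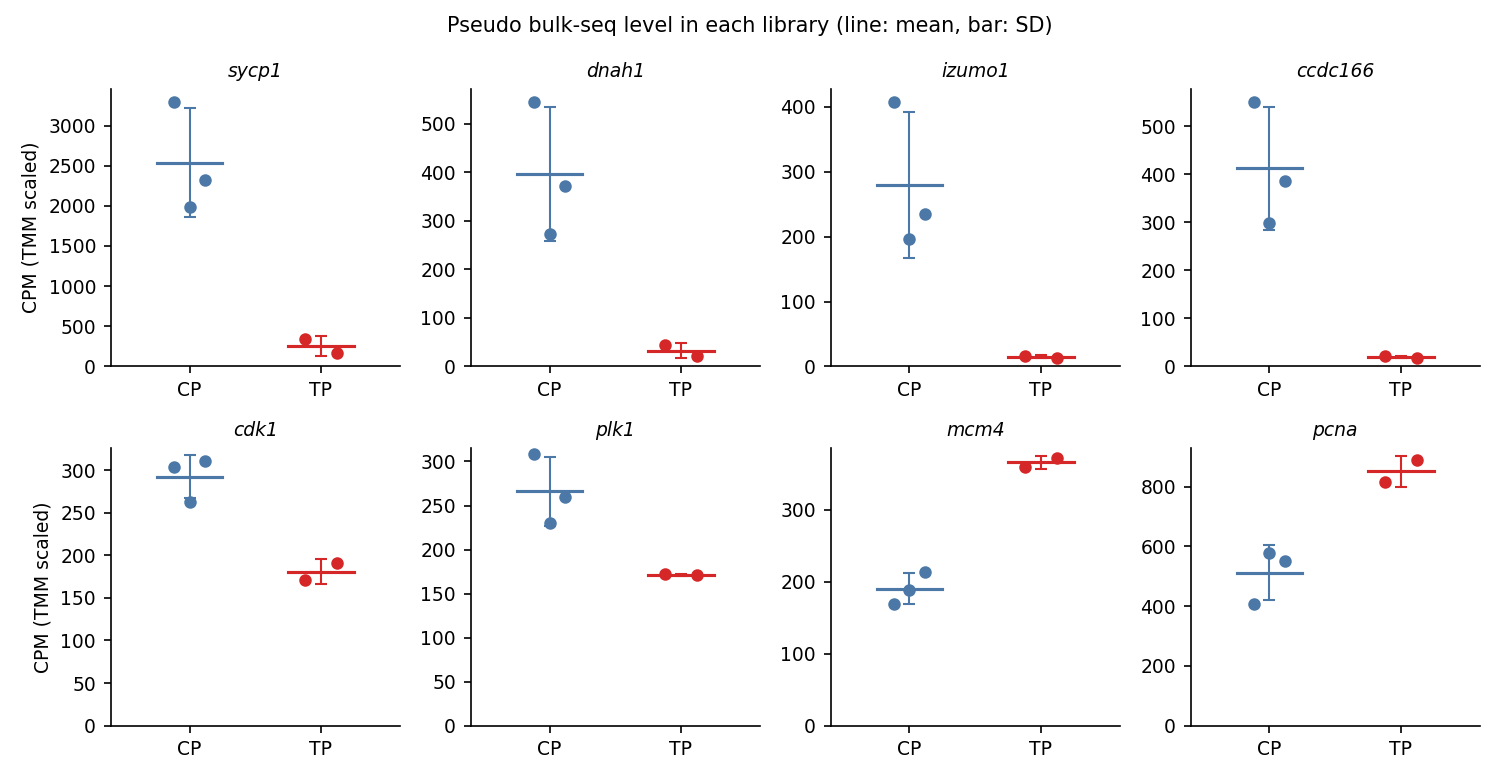
Level of 8 cluster 7 transcripts (CPM, TMM scaled) in the 3 CP and 2 TP libraries; each point is a library, horizontal lines are means and bars are SDs. In TP, sycp1 (338 and 167 CPM), dnah1, izumo1 and ccdc166 lie far below every control, cdk1 and plk1 are lower by less, and mcm4 and pcna, which few cells of cluster 7 contain, are higher.

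Several transcripts that few cells of cluster 7 contained rose. Of all tested transcripts with a lower share in cluster 7, 29.1% rose and 0.68% fell, beside 8.69% and 19.4% of all rows. Of 9 listed markers of spermatogonia, all with a lower share, 7 rose and 0 fell, with a median of 0.73. The 7 were pcna and the 6 helicase subunits mcm2 to mcm7, which serve DNA replication in any dividing cell. piwil1 and dmrt1, the germ-cell markers among the 9, had log2 fold changes of 0.50 (adjusted p = 0.0678, edgeR) and 0.43 (adjusted p = 0.0739, edgeR) and did not pass. pcna, the sliding clamp of DNA replication, was in 4.5% of cells of cluster 7 and 55.5% of all others, and measured 408, 579 and 552 CPM in CP and 814 and 889 in TP, a log2 fold change of 0.73 ± 0.19 (adjusted p = 0.029, edgeR). mcm4, of the replicative helicase, was in 0.90% against 38.0% of cells and at 169, 189 and 213 CPM against 359 and 372, a change of 0.94 ± 0.16 (adjusted p = 0.00685, edgeR). Both genes were higher in each exposed library than in any control, as for 32.2% of all rows. The median over the 6 helicase subunits was 0.81. The transcripts with the most negative gaps differed. gstr (3.70% of cells against 56.0%) and hirip3 (9.5% against 61.5%) had log2 fold changes of 0.59 (adjusted p = 0.129, edgeR) and 0.37 (adjusted p = 0.116, edgeR) and did not pass, while marcksb, cbx3a, a heterochromatin protein, and banf1 rose, with log2 fold changes of 0.96, 0.96 and 0.64. Among named transcripts that rose the smallest p belonged to serbp1a, hnrnpa1b and znf346, with log2 fold changes of 1.12, 1.12 and 1.13. The 7 spermatogonial calls were 3 without CP replicate 3 and 0 without TP replicate 1 or 2, and the 6 helicase calls were 3, 0 and 0.

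Housekeeping lists differed from one another, and of all rows 19.4% fell and 8.69% rose in TPxCP. Of 79 ribosomal protein transcripts 75 had a lower share in cluster 7, with a median over the list of 71.1% of cells against 85.8%, and 3 rose and 0 fell in TPxCP. They took 20.2%, 26.6% and 23.3% of counts in CP and 28.2% and 32.1% in TP, every control lying below both exposed libraries. The 3 calls became 34 without CP replicate 2, 2 without CP replicate 1, and 0 without CP replicate 3 or either TP library. Of 28 proteasome subunits 25 had a higher share, with a median of 64.6% of cells against 46.3%, and 9 fell. The listed subunits with a higher share were 18 of 20 in cluster 6, 6 of 15 in cluster 8, 1 of 15 in cluster 9 and 0 of 23 in cluster 10. The 9 calls became 4 without CP replicate 3, 0 without TP replicate 1 and 1 without TP replicate 2. Of 37 transcripts for ubiquitin and protein turnover 30 had a higher share, and of the 36 tested 23 fell and 3 rose. The 23 were 15 without CP replicate 3, 12 without TP replicate 1 and 8 without TP replicate 2.

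Some gene copies and isotypes of like function differed in whether their share was higher or lower in cluster 7. Of the isomerases of glycolysis, gpib was in 87.1% of its cells against 34.0% and fell in TPxCP from 538, 149 and 327 CPM in CP to 44.9 and 40.4 in TP, a log2 fold change of -2.98 ± 0.52 (adjusted p = 0.00763, edgeR). Its paralog gpia was in 7.80% against 30.0%, with overlapping libraries and a log2 fold change of 0.09. Among α-tubulins tuba1a was in 59.7% against 14.7% of cells and fell by 1.61 on the log2 scale, whereas tuba8l4 (14.0% against 54.9%) and tuba1c (5.60% against 27.4%) rose, with log2 fold changes of 0.93 and 0.92. Among relatives of the apoptosis inhibitor Mcl1, mcl1b was in 56.5% of cells against 21.3% and fell by 1.76, while mcl1a was in 3.70% against 34.8% and, at 0.53, did not pass the test. gpib, tuba8l4 and tuba1c did not pass without TP replicate 1 or without TP replicate 2, nor tuba8l4 without CP replicate 3, nor tuba1a without TP replicate 2. These pairs were picked after their values were seen, and reads that 2 copies share cannot be assigned with certainty.

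Of 29 chaperone transcripts 7 fell and 6 rose, beside the 19.4% and 8.69% of all rows. dnajb13, a radial spoke protein with a chaperone domain, was in 86.6% of cells of cluster 7 against 27.4% and stood at 452, 211 and 284 CPM in CP and 22.1 and 17.3 in TP, far below every control (log2 fold change -4.01 ± 0.38, adjusted p = 0.00166, edgeR). hspb11, a subunit of the intraflagellar transport complex, was in 83.2% against 27.8% and fell by 2.40 on the log2 scale. Subunits of the cytosolic chaperonin and mitochondrial chaperones had low shares and rose, cct5 (12.5% of cells) and tcp1 (10.1%) by log2 fold changes of 0.49 and 0.60 and hspa9 (1.90%) and hspd1 (0.40%) by 0.79 and 0.79. The 7 and 6 became 6 and 0 without CP replicate 3, and 4 and 0 without either TP library.

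Of 21 listed transcripts for histones and chromatin packing 6 had a higher share in cluster 7. In TPxCP 5 rose and 2 fell, beside 8.69% and 19.4% of all rows. Some core histones, picked after their values were seen, had smaller shares than in cluster 6. hist1h2a6 was in 72.9% of cells of cluster 6 and 17.7% of cluster 7, hist2h3c in 57.0% and 15.7%, and hist1h2a5 in 45.6% and 3.40%. Their log2 fold changes in TPxCP were -0.09, 0.19 and 0.26, and none passed the test. hmgn2, a nucleosome binding protein with the highest mean level of all the listed transcripts, was in 63.4% of cells of cluster 7 and 85.1% of others. It stood at 6507, 7662 and 8906 CPM in CP and at 12954 and 13316 in TP, above every control, a log2 fold change of 0.77 ± 0.17 (adjusted p = 0.0191, edgeR). The related hmgn1a and hmgn6 rose too, with log2 fold changes of 1.00 and 1.02. Without TP replicate 1 and without TP replicate 2 none of the 3 passed.

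Of the receptor pathway through which TCDD acts, 3 listed genes could be followed. ptges3b, the co-chaperone p23, was in 23.1% of cells of cluster 7 and 51.3% of others, and rose from 248, 205 and 250 CPM in CP to 346 and 331 in TP (log2 fold change 0.53 ± 0.16, adjusted p = 0.0458, edgeR). That call was lost without CP replicate 2, without CP replicate 3 and without each TP library (0 in each). hsp90ab1, the chaperone of the receptor, was in 99.8% and 99.7% of cells, and its log2 fold change of -0.25 did not pass. nfe2l2a, a transcription factor of the oxidative stress response, was in 14.7% against 5.90% of cells and at 17.6, 18.7 and 23.2 CPM in CP and 15.6 and 11.5 in TP, and its change of -0.56 ± 0.23 did not pass (adjusted p = 0.104, edgeR).

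Of the 1029 tested transcripts with a lower share in cluster 7, 7 fell, beside 19.4% of all rows. Those named here are examples with larger shares in cluster 6, 8 or 10, and the others are not described. XM_021480845 and XR_660386, with no gene name, were in 0.90% and 5.80% of cells of cluster 7 but in 65.4% and 79.5% of cluster 10, with log2 fold changes of -2.13 and -2.42. decr1, a mitochondrial reductase of fatty acid oxidation, was in 5.0% of cluster 7 and 42.3% of cluster 8. The log2 fold change of decr1 was -1.28. rad9b, of the DNA damage checkpoint clamp, was in 8.80% of cluster 7 and 37.0% of cluster 6. Its log2 fold change was -0.74, and it did not pass with library totals or without CP replicate 1 or 3. The count of 7 ranged from 0, without TP replicate 2, to 11, without CP replicate 2, and was 4 without CP replicate 3 and 3 without TP replicate 1.

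Of the 148 transcripts on the list of cluster 7 alone that were tested, 53 fell and 1 rose, with a median of -0.57. Of all rows 19.4% fell and 8.69% rose. trim35-1 was at 26.9, 20.0 and 28.0 CPM in CP and at 7.54 and 12.5 in TP, a log2 fold change of -1.29 ± 0.29 (adjusted p = 0.0178, edgeR). The log2 fold change was -1.15 for cxadr, -0.84 for gosr2 and -0.83 for tm2d1, while med9, at 144, 140 and 135 CPM in CP and at 102 and 112 in TP, changed by -0.38 ± 0.16 and did not pass (adjusted p = 0.103, edgeR). Groups did not overlap in any of these, as for 32.8% of all rows with TP lower. Of the others with the largest gaps, smyd1a and sema6ca overlapped between groups. Their log2 fold changes of -0.27 (adjusted p = 0.495, edgeR) and -0.42 (adjusted p = 0.271, edgeR) did not pass. ube2kb, at -0.46 (adjusted p = 0.0879, edgeR), and XM_005166171, at -0.66 (adjusted p = 0.0634, edgeR), did not overlap but did not pass either. XR_223827 was not in TPxCP. The 53 were 28 without CP replicate 3, 12 without TP replicate 1, 6 without TP replicate 2 and 78 on leaving out CP replicate 2.

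Bulk-seq of the same suspensions (TBxCB) gave no calls for these transcripts. Of 1756 listed transcripts tested among 12939 rows, 0 fell and 0 rose with edgeR's quasi-likelihood test, beside 0.0% of all rows in each direction, and 136 were lower and 19 higher at an unadjusted p under 0.05, where 4.44% of all rows lay in each direction. DESeq2 gave 3 lower and 1 higher. Without TB replicate 1 there were 153 lower and 8 higher. The median log2 fold change was -0.29 for the 1009 transcripts with a higher share in cluster 7 and -0.23 for the 747 with a lower share, and -0.18 for those higher in clusters 7, 8, 9 and 10, against -0.05 over all rows and -0.23 over the 4388 rows of both tables. sycp1 stood at 3629, 2387 and 3888 CPM in CB and at 3042 and 5370 in TB, and izumo1 at 183, 51.7 and 163 against 93.9 and 162. Exposed and control libraries overlapped in both.

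The difference between the TCDD effects in the 2 methods was tested as an interaction in 1 edgeR fit over the 4388 rows of both tables. Of 1706 listed transcripts the effect was lower in pseudo bulk-seq for 215 and higher for 15, beside 6.15% and 0.843% of all rows. Of the 215, 214 had a higher share in cluster 7, and 153 were among the 227 tested transcripts that were higher in clusters 7, 8, 9 and 10. For sycp1 the effects differed by -3.78 ± 0.51 on the log2 scale (adjusted p = 0.0054, edgeR) and for izumo1 by -4.28 ± 0.70 (adjusted p = 0.00611, edgeR). For cdk1 the difference was -0.13 ± 0.35 and for dmc1 0.04 ± 0.65, and neither passed. Without CP replicate 1 the counts were 124 and 2, without TP replicate 1 they were 69 and 1, without TP replicate 2 they were 1 and 0, and without TB replicate 1 they were 410 and 335. The 15 also became 7, 4 and 2 without CB replicates 1, 2 and 3, 5 without CP replicate 3 and 3 without TB replicate 2. The test takes libraries of 1 suspension as independent.

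**Figure D4:**
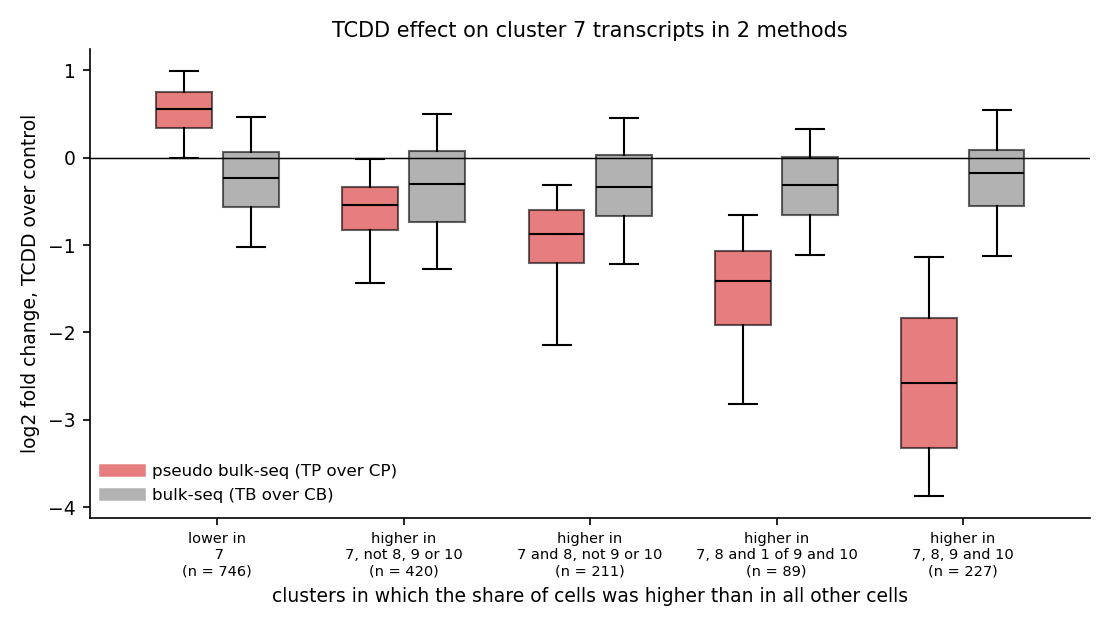
Log2 fold change of exposed over control libraries for cluster 7 transcripts in both tables, in pseudo bulk-seq (red) and in bulk-seq (grey), by those of clusters 7, 8, 9 and 10 in which the share was higher. A transcript not on a cluster's list counts as not higher there. Boxes are quartiles with the median, and whiskers the 5th and 95th percentiles over transcripts. The red medians go from 0.56 for transcripts with a lower share to -2.58 for those higher in clusters 7, 8, 9 and 10, while all grey medians lie between -0.34 and -0.18.

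Total counts were 3490409 to 9987998 in CP and 5324090 to 8067401 in TP, and 17638247 to 36172885 in CB against 13242441 and 4828801 in TB. TB replicate 2 was the shallowest of the bulk-seq libraries. The study's methods describe 3 exposure experiments carried out one after another, and nothing in the labels ties a library to one of them, so the part of the experiment in these results was not tested.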

How the data were processed

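Single-cell libraries (10x Chromium, 3' chemistry) and 3' bulk-seq libraries were made from the same suspensions of dissociated testis cells. The authors deposited, for each cluster, the fraction of its cells and of all other cells with a RefSeq transcript, pooled over libraries. Their methods name Cell Ranger (6.01 in the submitters' processing notes) and Seurat 4.0.4, a merge of all samples before clustering, and tests between conditions. The deposited fractions instead fitted a contrast of each cluster with all other cells, with a mean absolute residual of 0.0201 percentage points over 3694 transcripts. The reference is named as dR10 in the methods and as GRCz 11 (danRer 11) in the processing notes. The authors' count tables hold whole counts per transcript for TPxCP (6847 rows) and TBxCB (14792 rows). Columns of log fold changes and p-values by the authors were left unused, as their own comparisons. The columns of per-sample values left unused numbered 0. How doublets were treated is not given in the sources used here. Except for transcripts in nearly all cells, the lists, which pool cells, do not show which were found together in 1 cell.

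In TBxCB the counts ran in the reverse order of the row names. Spearman's correlation with another deposited bulk-seq table was -0.979 as deposited and 0.979 once the counts were reversed, so they were reversed. Counts were tested per transcript with edgeR 4.0.16 in R 4.3.3 (limma 3.58.1, filterByExpr, TMM scaling, quasi-likelihood test) over all rows, exposed against control, with Benjamini-Hochberg adjustment at 0.05. "Rose" and "fell" mean that this test was passed. DESeq2 1.42.0 served as an alternative. The scripts were tested on simulated data. Tables and plots used Python 3.11.15, pandas 2.3.3, scipy 1.17.1 and matplotlib 3.10.9. TBxCB columns were assigned to groups only, by their names, and the number of libraries limits precision.

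Named transcripts were the 15 with the largest and the 8 with the most negative gap, the 10 with the largest gap on no other list, the 10 with the smallest p in TPxCP in each direction, examples from each marker list, the 5 that differed most in each direction from clusters 6, 8, 9 and 10, and the 5 with the highest mean count. Genes outside that rule, such as foxj1a, dnali1, tmem81, ndc80, spc25, bub1bb, rsph9, dmc1 and spo11, the gene families and the interaction test were chosen after their values were seen. The members and the lists were chosen with earlier results of these data known. Marker lists were matched by gene symbol, and symbols came from a RefSeq gene table of another assembly, used for names only. Alternatives were other scaling, no filter, other tests, a replicate block, other members and leaving out each library.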

Additional observations from a re-analysis of the deposited data

Results flagged for a closer look

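The TCDD effect differed between the methods, by the interaction test in edgeR, for 215 cluster 7 transcripts in the downward direction (lower in pseudo bulk-seq) and for 15 in the upward direction. Without TP replicate 2 these counts were 1 and 0, and without TB replicate 1 they were 410 and 335. Among flagellar and sperm genes the difference of the log2 fold changes, pseudo bulk-seq minus bulk-seq, was -4.29 for lrrc51, -4.28 for izumo1, -3.92 for morn3, -4.0 for dnajb13, -3.80 for dnali1, -3.73 for rsph9, -3.27 for cfap144, -2.60 for spag6 and -2.51 for ift57. For sycp1 and ccna1, of meiosis, it was -3.78 and -2.95. It was -3.81 for mif4gdb, -3.76 for fbxo36a, -3.68 for nrm, -3.40 for srgn, -3.17 for fxyd3, -2.97 for nup42, -2.81 for gpib, -2.69 for ankrd45 and -2.10 for the tubulin tuba1a. Of the helicase subunits, mcm4 and mcm2 differed upward, by 1.37 and 1.1. Groups of at most 3 libraries were too small to look for single outlying libraries.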

How the results depend on the processing

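The 965 lower calls in TPxCP ranged from 343 to 1110 and the 299 higher calls from 5 to 578 when libraries were left out in turn, the fewest without TP replicate 2 and the most without CP replicate 2. Restricted to transcripts with a higher share, the higher calls were 0 and the median log2 fold change was -1.07, against -0.41 for the whole list. Restricted to transcripts on no other list, lower and higher calls were 53 and 1. Replicate numbers are shared by CP and TP, and with the number as a replicate block 481 were higher and 1011 lower. Deviations of same-numbered libraries correlated only weakly over transcripts (r = 0.258 for replicate 1 and 0.416 for replicate 2). With 2 TP libraries the values for TP replicates 1 and 2 mirror each other, so these are not separate checks. CP replicate 3, which has no TP partner, gave 0.215 with TP replicate 1. Nothing ties the numbers to the successive experiments, and 2 pairs are too few to decide whether they pair the samples. In TBxCB the fit with the column number as a replicate block gave 0 lower and 0 higher calls. There, DESeq2 gave 3 lower and 1 higher calls, the likelihood ratio test 3 lower, and leaving out libraries 0 to 153 lower and 0 to 8 higher. For the difference between the methods, library totals gave 8 higher calls, and leaving out libraries gave 1 to 410 lower and 0 to 335 higher, alternatives chosen after seeing the data. Of 76 called transcripts followed singly 26 passed under every alternative run. The log2 fold change of hist1h2a6, which did not pass, ranged from -0.29 without TP replicate 2 to 0.12 without TP replicate 1. The cause of these shifts was not tested. Precision was limited by 2 exposed libraries per method.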
